A study of Mus musculus with 18 samples.

Results

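Stk31 and Gstm6 were followed through single-cell transcriptomes of E8.5 mouse embryos that lack Dnmt1, Dnmt3a or Dnmt3b. They are 2 of the 31053 genes counted, picked by symbol because they had moved in opposite directions in Dnmt3a KO embryos relative to WT. The Dnmt3a KO values of both genes are therefore given as a description, without a test, and tests were made on Dnmt1 KO and Dnmt3b KO embryos. The WT embryos of those tests are the ones that had served in the choice. Unless a class is named, a level is the number of UMIs (unique molecular identifiers, 1 per captured transcript) of the gene per 1000000 UMIs (CPM), summed over all barcodes of an embryo with at least 1500 UMIs.

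The series holds libraries of 7 WT embryos and of KO embryos for Dnmt1 (3), Dnmt3a (4) and Dnmt3b (4), each labelled as a single E8.5 embryo on the 129S4/SvJae background. KO embryos are labelled null for the gene named and came from heterozygous parents crossed by natural mating, with WT embryos from the same kind of mating. The labels do not say from which of the 3 crosses a WT embryo came. Each embryo is named by its group and the number in its label. The embryos gave 128881 barcodes with at least 1500 UMIs, 1628 to 15427 per library, and 38742721 to 262580123 UMIs per library.

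The targeted genes were checked in every group. Dnmt1, which copies methylation onto replicated DNA, fell from 103 ± 10.4 CPM (SD, n = 7) in WT to 15.2 ± 0.379 CPM (n = 3) in Dnmt1 KO (adjusted p of 7.04e-11, edgeR). Dnmt3a, which adds methylation to unmethylated DNA, stood at 29.9 ± 3.65 CPM in WT and at 9.47 ± 1.81 CPM (n = 4) in Dnmt3a KO. Dnmt3b, its paralogue, stood at 62.5 ± 17.6 CPM in WT and at 63.2 ± 5.21 CPM (n = 3) in Dnmt3b KO, so the transcript does not check that label, and whether the 3′ tags lie outside the deleted part is not given in the sources used here.

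Some Dnmt3b KO libraries stood apart. Dnmt3b KO 1 and Dnmt3b KO 2 shared 12249 barcodes, 86.5% and 79.3% of their barcodes, whereas the next pair of libraries shared 133, and cells of the same barcode correlated better (median r = 0.789) than cells of different barcodes (0.620). They were summed and counted as 1 embryo, Dnmt3b KO 1+2. Barcodes found in both libraries enter the cell numbers and pooled shares of Dnmt3b KO once per library. Dnmt3a itself stood at 32.5 CPM in Dnmt3b KO 1+2, while Dnmt3b KO 11 had 15.1 CPM and Dnmt3b KO 12 had 7.65 CPM, the last of these within the 7.59 to 11.8 CPM of the Dnmt3a KO embryos. The genotype labels of Dnmt3b KO 11 and 12 may therefore be incomplete or wrong, which the counts do not settle, and every Dnmt3b KO mean depends on them. Whole-embryo tests of both genes, and the counts of called genes in the gene lists, are given with and without Dnmt3b KO 11 and 12, a choice made after seeing the data. Class tests need 3 KO embryos and were not repeated without them, so values of Dnmt3b KO 1+2 are given beside those. The summed Y-linked genes Uty, Kdm5d, Eif2s3y and Ddx3y were at 91.6 CPM or more in every Dnmt1 KO and Dnmt3a KO embryo, in Dnmt3b KO 1, 2 and 11 and in WT 2, and at 0.140 CPM or less in the other WT embryos and in Dnmt3b KO 12, so sex went largely with genotype, and fits with the Y-linked level as a covariate are in the closing section.

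STK31 is a protein with a Tudor domain and a kinase-like domain that is known from male germ cells, where Tudor proteins bind methylated PIWI proteins and act in the piRNA pathway, which silences transposons. Many genes of that pathway have CpG-rich promoters that carry DNA methylation in somatic cells. GSTM6 belongs to the mu class of glutathione S-transferases, which join glutathione to reactive compounds, and its gene lies in a cluster with the other mu class genes. Stk31 (ENSMUSG00000023403) lies at chr6:49395604-49469501 on the plus strand of mm10, with 24 exons in the transcript used, and Gstm6 (ENSMUSG00000068762) at chr3:107938847-107943749 on the minus strand, with 8 exons. None of the 451 stretches of 50 bases at the 3′ end of either transcript occurred in another gene, so the 3′ tags of Gstm6 can be told from those of the other mu class genes.

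The promoters of both genes are shown because the enzymes removed in these embryos methylate CpG sites. The runs come from the windows of 250 bases upstream of a RefSeq start on GRCm38.p6, with the bases of the Gstm6 window that lie inside the annotated gene left out, written 5′ to 3′ on the strand of the gene with every CpG in capitals, for Stk31 at chr6:49395289-49395538 (plus strand) and for Gstm6 at chr3:107943750-107943984 (minus strand):
Stk31: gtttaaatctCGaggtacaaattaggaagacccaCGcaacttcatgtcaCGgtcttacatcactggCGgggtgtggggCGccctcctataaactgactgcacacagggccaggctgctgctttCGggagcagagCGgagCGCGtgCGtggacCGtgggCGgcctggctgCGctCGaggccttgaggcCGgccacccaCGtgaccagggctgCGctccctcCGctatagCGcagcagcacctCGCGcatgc
Gstm6: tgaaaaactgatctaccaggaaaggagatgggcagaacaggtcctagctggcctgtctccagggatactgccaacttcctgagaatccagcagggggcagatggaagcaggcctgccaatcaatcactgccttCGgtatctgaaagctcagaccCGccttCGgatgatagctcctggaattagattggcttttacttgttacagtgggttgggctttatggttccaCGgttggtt
The Stk31 run holds 21 CpG in 250 bases, with 63.6% G and C and an observed over expected CpG ratio of 0.831. The Gstm6 run holds 4 CpG in 235 bases, with 51.1% G and C and a ratio of 0.264. Among 32851 RefSeq windows of 250 bases the median was 6 CpG, a count of 21 stood at the 85.2 percentile and a count of 4, which the whole Gstm6 window also holds, at the 44.4 percentile. Both strands were searched for the E-box CACGTG and the E2F-type motif TCCCGC. The Stk31 run held 1 CACGTG, which 6.02% of all windows hold, and no TCCCGC, which 16.9% hold, and the Gstm6 run held neither. RefSeq lists a further Stk31 start whose window has 26 CpG and further Gstm6 starts whose windows have 3 and 7 CpG. The Gstm6 window with 7 CpG holds 2 TCCCGC. Methylation itself was not measured in the counts.

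Stk31 was low in WT embryos and was higher in every KO embryo. In the 7 WT embryos its level ran from 0.258 to 0.608 CPM with a median of 0.419 CPM, from 10 to 108 UMIs per embryo. The Dnmt1 KO embryos stood at 8.10, 8.21 and 4.70 CPM (872, 1138 and 415 UMIs), all above every WT embryo. The Dnmt3b KO embryos stood at 3.04, 3.82 and 9.04 CPM in the order 1+2, 11 and 12, again with no overlap with WT. Dnmt3b KO 12 was the highest of all embryos, and the other Dnmt3b KO values lay in or near the Dnmt3a KO range. In the Dnmt3a KO embryos 1, 2, 13 and 14, on which the gene was chosen, Stk31 stood at 2.81, 3.42, 3.73 and 4.37 CPM.

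Stk31 rose by a log2 fold change of 4.10 ± 0.29 (SE) in Dnmt1 KO against WT, with group means of 7.0 ± 2.0 CPM (SD, n = 3) and 0.419 ± 0.129 CPM (n = 7) and an adjusted p of 2.27e-08 (edgeR quasi-likelihood test, Benjamini-Hochberg over 18870 genes). Calls required a log2 fold change of 1 or more with an adjusted p below 0.01, a rule met in the higher direction by 8.19% of all genes in Dnmt1 KO. The makeup of the Dnmt1 KO embryos, pooled, also differed from WT. Extraembryonic (ExE) ectoderm-like cells, which had high Stk31 in the 1 WT embryo that held enough of them, were 20.1% of their cells in the marker-based classes and 0.438% of those of WT, and ExE endoderm-like cells were 18.8% and 8.32%. These shares differed by embryo. Of the 1464, 3054 and 2550 cells kept in Dnmt1 KO 1, 2 and 3, 82, 951 and 116 were ExE ectoderm-like. ExE endoderm-like cells numbered 342, 630 and 103. The part of makeup in the whole-embryo rise was not tested, and within ExE endoderm-like cells the log2 fold change was 2.14. In Dnmt3b KO Stk31 rose by 3.57 ± 0.29, to a mean of 5.30 ± 3.26 CPM (n = 3), with an adjusted p of 5.99e-07 (edgeR), where 1.83% of all genes were called higher. Without Dnmt3b KO 11 and 12 the rise was 2.73 ± 0.31 with an adjusted p of 1.69e-04 (edgeR), in a fit that takes the lone Dnmt3b KO 1+2 to vary like the other groups. The fitted Dnmt3a KO value, a description, was 3.03 ± 0.28 with a mean of 3.58 ± 0.649 CPM (n = 4). In that comparison 0.196% of all genes were called higher and 2.07% had every Dnmt3a KO embryo above every WT embryo, figures that say nothing further about a gene chosen there. The 3 comparisons share their WT embryos.

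Set against each other, Dnmt3b KO and Dnmt1 KO embryos overlapped in Stk31 only through Dnmt3b KO 12, and the difference did not pass the threshold. The log2 fold change was −0.52 ± 0.35 with an adjusted p of 0.268 (edgeR), and 3.86% of all genes were called lower in Dnmt3b KO than in Dnmt1 KO. Across all genes this comparison called 940 higher and 729 lower, or 1161 and 560 without TMM scaling. Without Dnmt3b KO 12 the difference was −1.09, with an adjusted p of 0.0254 (edgeR) that still missed the threshold, and without Dnmt3b KO 11 and 12 it was −1.36 with an adjusted p of 0.0532.

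**Figure D1:**
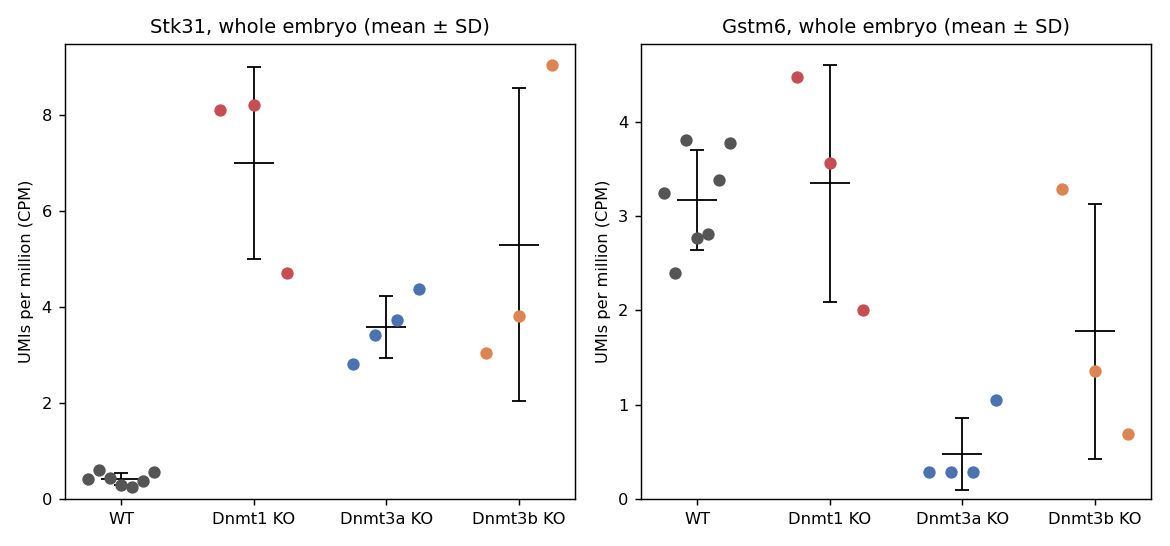
Levels of Stk31 (left) and Gstm6 (right) in each embryo, in CPM over barcodes with at least 1500 UMIs. Points are embryos, with Dnmt3b KO 1 and 2 summed into 1 point, and the bars give the mean and SD of each group. For Stk31 every KO embryo sits at 2.81 CPM or more and every WT embryo at 0.608 CPM or less. For Gstm6 the 4 Dnmt3a KO embryos sit between 0.286 and 1.05 CPM, and the Dnmt3b KO embryos spread from 0.686 to 3.29 CPM.

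Most WT UMIs of Stk31 in named classes were in cells like those of ExE endoderm, the lining of the yolk sac. Cells were sorted into classes rebuilt from marker genes, with a name only for clusters that met thresholds set after the scores were seen. Unnamed clusters held 18.5% of WT cells, 17.7% of Dnmt1 KO cells, 29.4% of Dnmt3a KO cells and 18% of Dnmt3b KO cells. Single libraries carried part of this, since 51% of the cells of Dnmt3a KO 2 and 33.6% of those of Dnmt1 KO 3 were unnamed, and without them the shares were 16.5% in Dnmt3a KO and 8.7% in Dnmt1 KO. Among the unnamed clusters, clusters 3, 10 and 16 scored highest for ExE endoderm. Clusters 3 and 10 were left unnamed as shallow and cluster 16 for a low score. The size and depth of the ExE endoderm-like class therefore depend on the naming. Of the named cells, 2319 WT cells were ExE endoderm-like on Ttr, Apoa1, Apob, Afp, Cubn, Rbp4 and Amn. They were 8.32% of the WT cells in named classes and held 352 of the 489 WT UMIs of Stk31 in those classes (72%). Their level ran from 0.872 to 3.82 CPM with a mean of 2.11 ± 0.882 CPM (n = 7), and the next classes were allantois-like (0.486 ± 0.608 CPM) and gut endoderm-like cells (0.383 ± 0.420 CPM). In the order of 19 classes no class stood clear of the next over embryos, and Stk31 was at 0 UMIs in notochord-like, megakaryocyte-like and neural crest-like cells of the WT embryos with at least 25 such cells. Over all 153 WT notochord-like cells, 1 cell had Stk31 UMIs. In WT 2 a further 122 ExE ectoderm-like cells, of the trophoblast lineage, stood at 7.0 CPM (21 UMIs), with no second WT embryo to set beside it.

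In the KO embryos the ExE endoderm-like class held a smaller share of the Stk31 UMIs than in WT, and still more than its share of cells. Of the Stk31 UMIs it held 36.7%, 36% and 26.4% in Dnmt1, Dnmt3a and Dnmt3b KO, while its share of cells was 18.8%, 7.88% and 7.41%. Shares of cells take no account of depth per cell, so the excess is not one of level. Mean levels in these groups were 9.14, 9.35 and 9.59 CPM in this class and 8.93, 8.09 and 9.66 CPM in ExE mesoderm-like cells. Dnmt1 KO ExE ectoderm-like cells stood at 12.2 CPM. Within ExE endoderm-like cells, the 1 class where all 7 WT embryos had Stk31 counts, Stk31 was higher in each KO embryo than in each WT embryo. It stood at 9.47, 9.84 and 8.11 CPM in Dnmt1 KO, at 7.94, 8.40, 11.2 and 9.88 CPM in Dnmt3a KO 1, 2, 13 and 14, and at 7.55, 9.34 and 11.9 CPM in Dnmt3b KO 1+2, 11 and 12. The 3 KO groups overlapped with each other. The log2 fold change was 2.14 ± 0.20 in Dnmt1 KO with an adjusted p of 3.39e-07 (edgeR), and 2.14 ± 0.20 in Dnmt3b KO with an adjusted p of 1.84e-06. Clusters 15 and 44 of this class were 98.5% and 80.0% Dnmt1 KO cells.

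In ExE mesoderm-like cells, of the layer of the yolk sac wall that forms its vessels and connective tissue, Stk31 was near 0 in WT. The 7 WT embryos ran from 0 to 0.657 CPM with a mean of 0.278 ± 0.227 CPM. The Dnmt1 KO embryos stood at 12.3, 7.68 and 6.82 CPM, the Dnmt3a KO embryos at 4.83, 6.14, 10.8 and 10.6 CPM and the Dnmt3b KO embryos at 4.24, 6.29 and 18.5 CPM. No KO embryo overlapped with WT, and Dnmt3b KO 12 was again the highest. The WT embryos held 17 Stk31 UMIs in this class, so the gene passed the filter on low counts through the KO embryos, and the fitted log2 fold changes of 4.86 ± 0.50 in Dnmt1 KO and 4.88 ± 0.50 in Dnmt3b KO are a description. Cluster 24 of this class was 98.7% Dnmt1 KO cells.

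Stk31 was also higher outside the ExE classes, where its values are again a description. In most classes the WT counts were near 0 and the gene passed the filter through the KO embryos, so neither the number of classes nor the fits carry a test. Free RNA from Stk31-rich cells of the same library could give some of these UMIs, and its part was not tested. At 1500 UMIs per cell, 1.30% of Dnmt3a KO and 1.34% of Dnmt3b KO ExE endoderm-like cells had a Stk31 UMI (median depths 49986 and 35543 UMIs). Erythroid-like cells stood at 0.229% and 0.2% (28984 and 16338 UMIs). Hindbrain and spinal cord-like cells stood at 0.22% and 0.307% and neural crest-like cells at 0.0966% and 0.426%. Whether erythroid-like cells of KO embryos express Stk31 is not known, so no level of free RNA is read from these shares. In Dnmt1 KO, 6 classes had enough cells in at least 3 embryos, Stk31 passed the filter on low counts in 5 and it was called higher in 5. The log2 fold changes were 4.44 in endothelium-like, 4.43 in gut endoderm-like and 5.59 in pharyngeal mesoderm-like cells besides those above, against 4.26% of all gene and class pairs called higher. Cluster 32 of the pharyngeal mesoderm-like class was 98.9% Dnmt1 KO cells. In Dnmt3b KO Stk31 passed the filter in 16 of 18 classes and was called higher in 16, against 0.611% of all pairs called higher. Dnmt3b KO 1+2 by itself stood above every WT embryo in the same 16. The share of all pairs that do so in a lone embryo was not computed, so nothing is read from that count. The smallest fitted log2 fold change was the 2.14 of ExE endoderm-like cells and the largest the 6.64 ± 0.55 of hindbrain and spinal cord-like cells, whose WT level was 0.0172 ± 0.0303 CPM and whose Dnmt3b KO level was 2.97 ± 1.82 CPM.

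In Dnmt3a KO the gene passed the filter in 16 of 19 classes, with log2 fold changes of 2.12 to 5.70, and in 15 classes every Dnmt3a KO embryo stood above every WT embryo, as did 1.17% of all gene and class pairs. This contrast chose the gene. Erythroid-like cells went from 0.161 ± 0.252 CPM in WT to 1.46 ± 0.728 CPM in Dnmt3a KO and 2.14 ± 2.23 CPM in Dnmt3b KO. Where all WT embryos with at least 25 cells were at 0, folds were set against a floor of 3 UMIs over the group. Against it, Stk31 was 4.71-fold higher in Dnmt1 KO megakaryocyte-like cells and 15.3-fold higher in Dnmt3b KO neural crest-like cells. The floor bounds the counting error of WT alone, not that of the KO embryos. The neural crest-like cells of Dnmt3b KO 1+2, 11 and 12 stood at 2.10, 1.75 and 3.14 CPM. In megakaryocyte-like cells these embryos stood at 1.84, 0.847 and 5.16 CPM, from 3, 1 and 18 UMIs, beside a floor of 0.620 CPM for WT, and no fold is given.

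**Figure D2:**
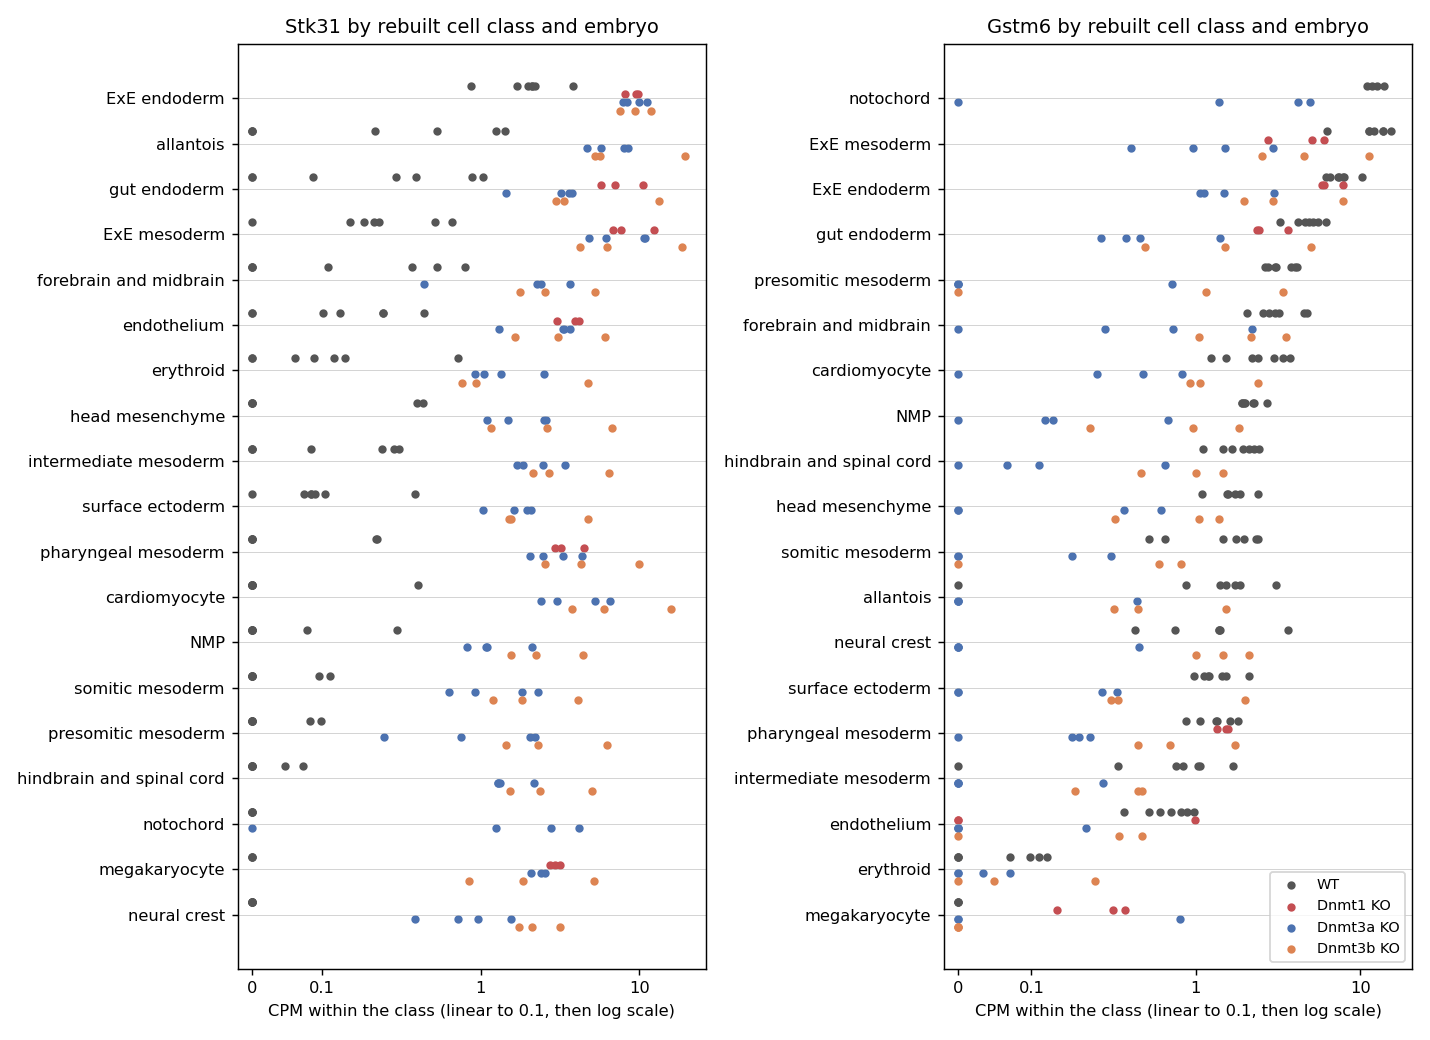
Levels of Stk31 (left) and Gstm6 (right) within each rebuilt cell class, in CPM of the class, on an axis that is linear to 0.1 and logarithmic above. Each point is an embryo with at least 25 cells of the class, groups with fewer than 3 such embryos are not drawn, and classes are ordered by their WT mean. Stk31 is highest in WT in ExE endoderm-like cells, at 2.11 CPM, and the KO points lie to the right of the WT points in nearly every class. Gstm6 is highest in WT in notochord-like and ExE mesoderm-like cells, at 12.3 and 11.9 CPM, and the Dnmt3a KO points lie furthest to the left in most classes.

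The share of cells with a Stk31 UMI moved with the level, which at 1500 UMIs per cell it largely restates. Its test is therefore not separate support for the rise. After every cell had been thinned to 1500 UMIs, which left out no cell, 0.0641% ± 0.0415 of cells had a UMI in WT, 0.858% ± 0.276 in Dnmt1 KO and 0.802% ± 0.489 in Dnmt3b KO. The difference from WT was 0.794 percentage points in Dnmt1 KO and 0.738 in Dnmt3b KO, each with p = 0.0167 in an exact two-sided permutation test over 120 splits of the embryos, the smallest such a design allows, and an adjusted p of 0.0333 over 4 tests. Dnmt3b KO 1+2 by itself stood at 0.453%. Unthinned, the shares were 1.22% ± 0.654, 19.9% ± 10.5 and 10.1% ± 7.63. At 1500 UMIs 0.303% of WT ExE endoderm-like cells had a UMI (median depth 64702 UMIs), compared with 0.0263% of WT erythroid-like cells (median 31371) and 0.0301% of WT ExE mesoderm-like cells (median 29054). The share was 0.00161% in WT hindbrain and spinal cord-like cells (median 31680), from 2 Stk31 UMIs. Erythroid-like and ExE mesoderm-like cells held 16 and 17. These shares pool the cells of all WT embryos, so no difference between the low classes is read from them. No cell of any library had more than 8 Stk31 UMIs.

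Genes of the Tudor domain family and piRNA pathway partners of Tudor proteins were among those called higher. These gene lists were chosen with earlier results of these data known, so their counts are a description. The part in these whole-embryo values of the makeup of the Dnmt1 KO embryos, given above, was not tested. Fits without Dnmt3b KO 11 and 12 rest on Dnmt3b KO 1+2 alone. Of 11 further Tudor domain genes, all tested, 3 were called higher in Dnmt1 KO, 1 in Dnmt3b KO and none in Dnmt3a KO, beside 8.19%, 1.83% and 0.196% of all genes. The medians were 0.49, 0.47 and 0 on the log2 scale beside 0.01, −0.01 and 0 over all genes. Without Dnmt3b KO 11 and 12 the same gene, Rnf17, was called in Dnmt3b KO and the median was 0.09. Rnf17, a Tudor protein of male germ cells, went from 5.80 ± 1.02 CPM in WT to 28.6 ± 1.94 CPM in Dnmt1 KO (log2 fold change 2.38 ± 0.14) and to 13.2 ± 2.10 CPM in Dnmt3b KO (1.14 ± 0.15). Tdrd12 rose by 1.34 ± 0.18 and Tdrd5 by 1.31 ± 0.30 in Dnmt1 KO. Stk31 thus had the largest log2 fold change among the 12 Tudor domain genes in each of the 3 KO groups, a ranking that in Dnmt3a KO follows from its choice. No gene of the list was called lower in any KO group by edgeR.

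Of 12 piRNA pathway partners, all tested, 8 were called higher in Dnmt1 KO, 7 in Dnmt3b KO and 1 in Dnmt3a KO, beside the same 8.19%, 1.83% and 0.196% of all genes and with medians of 3.73, 3.04 and 1.21 on the log2 scale. The limits given for the Tudor domain list hold here too, and these counts are a description. Gtsf1 and Mael were too low in WT to reach the filter on low counts in 3 WT embryos and passed it through the KO embryos, so their values are a description. Of the other 10 genes, 6, 5 and 1 were called, with medians of 2.28, 2.08 and 0.96. Without Dnmt3b KO 11 and 12, 6 of the 12, Gtsf1 and Mael among them, were called in Dnmt3b KO, where 0.43% of all genes were called higher, with a median of 2.46. The gene no longer called was Fkbp6, a chaperone of the pathway, at 2.37 ± 0.55 with an adjusted p of 0.0705 (edgeR). Piwil2, a PIWI protein that binds piRNAs, went from 0.208 ± 0.0373 CPM in WT to 4.26 ± 1.02 CPM in Dnmt1 KO (log2 fold change 4.42 ± 0.24) and 2.03 ± 1.10 CPM in Dnmt3b KO (3.22 ± 0.24). Asz1, which anchors the pathway at mitochondria of germ cells, rose by 6.51 ± 0.63 and 5.59 ± 0.62. Gtsf1, a cofactor of PIWI proteins, went from 0.0293 ± 0.00953 CPM in WT to 8.72 ± 1.92 CPM in Dnmt1 KO, and its fitted values of 8.26 ± 0.71 and 6.16 ± 0.69 depend on those few WT counts. In Dnmt3b KO both means rest on Dnmt3b KO 12, where Asz1 stood at 30.5 CPM and Gtsf1 at 6.0 CPM, while Dnmt3b KO 1+2 and 11 had 2.05 and 3.8 CPM of Asz1 and 0.21 and 0.579 CPM of Gtsf1. Without Dnmt3b KO 11 and 12 the log2 fold changes were 3.0 ± 0.50 for Asz1 and 2.71 ± 0.34 for Gtsf1. Ddx4, the germ cell RNA helicase Vasa, was the 1 partner called in Dnmt3a KO, at 1.83 ± 0.29 with an adjusted p of 0.00474 (edgeR), beside 3.52 ± 0.31 in Dnmt1 KO and 2.85 ± 0.31 in Dnmt3b KO. Mael, Mov10l1 and Fkbp6 were called in both Dnmt1 KO (4.29, 3.94 and 4.54) and Dnmt3b KO (5.55, 3.77 and 3.24), and Mybl1, a transcription factor of the pathway, in Dnmt1 KO alone (1.05 ± 0.15). Mov10l1 stood at 9.96 CPM in Dnmt3b KO 12, beside 3.48 and 3.31 CPM in Dnmt3b KO 1+2 and 11. Without Dnmt3b KO 11 and 12 its log2 fold change was 3.05 ± 0.27. The other 4 genes of the list were called in no KO group by edgeR, with log2 fold changes between −0.29 and 1.31.

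**Figure D3:**
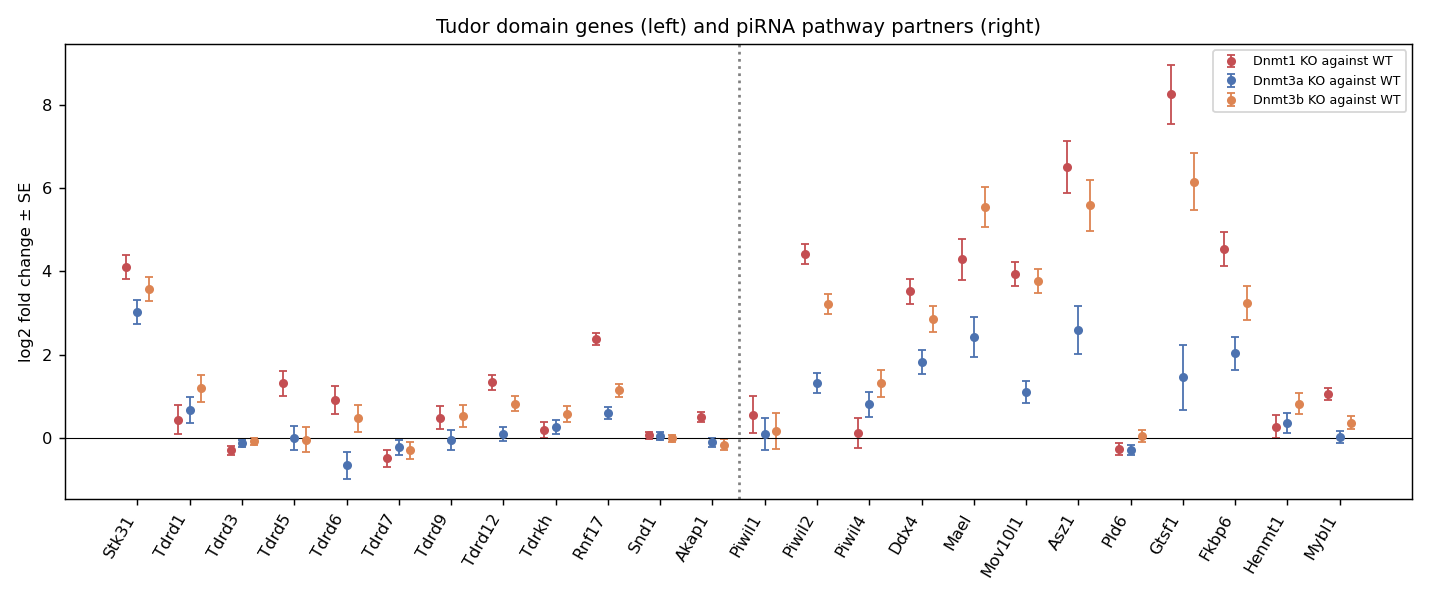
Log2 fold change against WT with its SE for Stk31 and 11 further Tudor domain genes (left of the dotted line) and 12 piRNA pathway partners (right), from whole-embryo sums. Red is Dnmt1 KO, blue Dnmt3a KO and orange Dnmt3b KO, all against the same 7 WT embryos. Stk31 stands at 4.10, 3.03 and 3.57 while most Tudor domain genes lie near 0, and Gtsf1, near 0 CPM in WT, reaches a fitted 8.26 in Dnmt1 KO.

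The genes whose levels followed Stk31 most closely over the 17 columns were Ptpn20 (r = 0.979), Tex12 (0.977), Sohlh2 (0.968), Mgl2 (0.967) and Psma8 (0.965), as Pearson correlations of log2 CPM. The columns share the same 4 groups, so r reflects the group means and carries no p. Ptpn20, Sohlh2 and Mgl2 were near 0 CPM in most WT embryos and passed the filter on low counts through the KO embryos. Their r and levels are therefore a description. Tex12, a component of the synaptonemal complex of meiosis, went from 0.190 ± 0.136 CPM in WT to 7.25 ± 1.30, 1.90 ± 0.586 and 5.69 ± 2.81 CPM in Dnmt1, Dnmt3a and Dnmt3b KO. Psma8, the subunit of the testis proteasome, went from 0.542 ± 0.120 CPM to 2.58 ± 0.312, 2.09 ± 0.365 and 3.67 ± 1.91 CPM. Sohlh2, a transcription factor of germ cells, was at 13.7 ± 1.96 CPM in Dnmt1 KO but ran from 1.51 to 55.3 CPM over the Dnmt3b KO embryos. Mgl2, a lectin of macrophages, went from 0.00888 ± 0.00772 CPM to 0.729 ± 0.295 CPM in Dnmt3a KO. Stk31 and its 5 nearest genes lie on 6 different chromosomes.

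Of 12 genes annotated within 500 kb of Stk31, 8 were tested and none was called by edgeR in any KO group, a count near what the 8.19% higher and 6.09% lower of all genes in Dnmt1 KO, and the smaller shares in the other KO groups, would give. Their values are a description, with log2 fold changes of −0.31 to 1.02 for Dnmt1, −0.24 to 0.40 for Dnmt3a and −0.39 to 0.61 for Dnmt3b. The nearest, Fam221a, ends 5.07 kb upstream of Stk31 and had log2 fold changes of 0.62 ± 0.19, 0.32 ± 0.17 and 0.61 ± 0.19, with adjusted p of 0.016, 0.599 and 0.0811 (edgeR).

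Gstm6 was steady in WT, low in Dnmt3a KO and mixed in Dnmt3b KO. In the 7 WT embryos it ran from 2.40 to 3.81 CPM with a median of 3.25 CPM. The Dnmt3a KO embryos 1, 2, 13 and 14, on which the gene was chosen, stood at 0.288, 0.286, 0.288 and 1.05 CPM (66, 52, 70 and 273 UMIs), all below every WT embryo, with Dnmt3a KO 14 above the others of its group. The Dnmt1 KO embryos stood at 4.48, 3.56 and 2.0 CPM, on both sides of the WT range. The Dnmt3b KO embryos stood at 3.29 CPM in Dnmt3b KO 1+2 (3.08 and 3.48 CPM taken separately), and numbers 11 and 12 had 1.36 and 0.686 CPM. Dnmt3b KO 1+2 lay inside the WT range, Dnmt3b KO 11 below it, and Dnmt3b KO 12 inside the Dnmt3a KO range.

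As a description, Gstm6 had a log2 fold change of −2.79 ± 0.42 in Dnmt3a KO, with means of 0.479 ± 0.383 CPM (n = 4) and 3.17 ± 0.532 CPM (n = 7). Of all genes 0.0106% were called lower in Dnmt3a KO and 0.143% had every Dnmt3a KO embryo below every WT embryo, shares from which nothing is read about a gene chosen there. In Dnmt1 KO the log2 fold change was 0.15 ± 0.40 with an adjusted p of 0.798 (edgeR), where 6.09% of all genes were called lower. In Dnmt3b KO, with a mean of 1.78 ± 1.35 CPM (n = 3), it was −0.88 ± 0.42 with an adjusted p of 0.279, where 0.0318% were called lower. Neither passed the threshold. Without Dnmt3b KO 11 and 12 the Dnmt3b KO value was −0.04 ± 0.50 with an adjusted p of 1.00 (edgeR), and with Dnmt3b KO 1 and 2 left out it was −1.59 with an adjusted p of 0.0455. Between Dnmt3b KO and Dnmt1 KO the log2 fold change was −1.03 ± 0.48 with an adjusted p of 0.112 (edgeR), and without Dnmt3b KO 11 and 12 it was −0.18 with an adjusted p of 0.859.

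Gstm6 stood low where Dnmt3a stood low, in the Dnmt3a KO embryos, on which it was chosen, and in Dnmt3b KO 11 and 12. Of the embryos low in both genes, only Dnmt3b KO 11 and 12 lie outside that choice. The 4 Dnmt3a KO embryos, Dnmt3b KO 11 and Dnmt3b KO 12 had 7.59 to 15.1 CPM of Dnmt3a and 0.286 to 1.36 CPM of Gstm6. The other embryos had 23.5 CPM of Dnmt3a or more and 2.0 CPM of Gstm6 or more. Dnmt3b KO 11 and Dnmt3a KO 14 held intermediate values of both genes, at 15.1 and 11.8 CPM of Dnmt3a and 1.36 and 1.05 CPM of Gstm6. Stk31 showed no such order, since the Dnmt1 KO embryos and Dnmt3b KO 1+2 combined 26.3 to 37.7 CPM of Dnmt3a with 3.04 to 8.21 CPM of Stk31. The part of a lower Dnmt3a level in the Dnmt3b KO values was not tested.

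**Figure D4:**
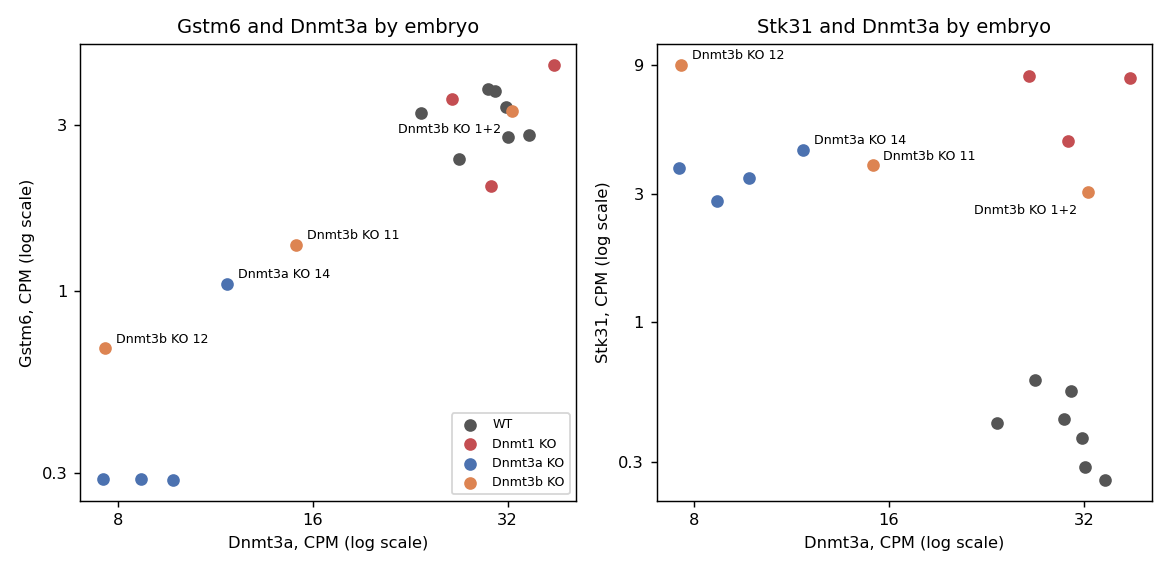
Level of Gstm6 (left) and of Stk31 (right) against that of Dnmt3a in the same embryo, in CPM, with both axes on a log scale. Each point is an embryo coloured by group, and Dnmt3b KO 1 and 2 are summed. Dnmt3b KO 12 and Dnmt3b KO 11 sit beside the Dnmt3a KO embryos at the lower left of the Gstm6 panel, at 7.65 and 15.1 CPM of Dnmt3a, and Dnmt3b KO 1+2 sits among the WT embryos.

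Gstm6 had a clearer order of classes in WT than Stk31. It was highest in notochord-like cells (12.3 ± 1.29 CPM, n = 4) and ExE mesoderm-like cells (11.9 ± 2.90 CPM, n = 7), which overlapped, and ExE endoderm-like cells followed at 7.64 ± 1.30 CPM, clear of all lower classes in that their lowest embryo, at 6.20 CPM, stood above the highest gut endoderm-like value of 6.19 CPM. Gut endoderm-like cells stood at 4.82 ± 0.965 CPM and presomitic mesoderm-like cells at 3.34 ± 0.610 CPM, and neighbours overlapped from there down to endothelium-like cells at 0.693 ± 0.213 CPM. Erythroid-like cells (0.0576 ± 0.0562 CPM) and megakaryocyte-like cells (0 UMIs in 3 embryos) stood below endothelium-like cells without overlap, while allantois-like and intermediate mesoderm-like cells also had WT embryos at 0. Of the Gstm6 UMIs in named WT classes, 38.6% were in ExE endoderm-like and 19.6% in ExE mesoderm-like cells.

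The low level in Dnmt3a KO was seen in most classes where the gene could be measured. Gstm6 passed the filter in 12 of 19 classes, with log2 fold changes of −3.99 to −2.15, and in 9 every Dnmt3a KO embryo stood below every WT embryo, as did 0.53% of all gene and class pairs. This contrast chose the gene, and the classes hold cells of the same embryos, so these values are a description. In ExE endoderm-like cells the WT embryos ran from 6.20 to 10.2 CPM with a median of 7.37 CPM, and Dnmt3a KO 1, 2, 13 and 14 stood at 1.12, 1.48, 1.07 and 3.0 CPM. In ExE mesoderm-like cells WT ran from 6.29 to 15.3 CPM with a median of 12.1 CPM, and the Dnmt3a KO embryos stood at 0.965, 0.404, 1.5 and 2.96 CPM. Dnmt3a KO 14 was the highest of its group in both.

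In Dnmt3b KO, Gstm6 was called in 0 of 12 classes by edgeR, with log2 fold changes of −1.47 to −0.38 and adjusted p from 0.113 to 0.759, while 0.0345% of all pairs were called lower. Dnmt3b KO 1+2 by itself stood below every WT embryo in 1 of the 12, a count from which nothing is read, since the share over all pairs was not computed. In ExE endoderm-like cells Dnmt3b KO 1+2, 11 and 12 stood at 7.79, 2.95 and 1.97 CPM, and in ExE mesoderm-like cells at 11.3, 4.53 and 2.51 CPM, so that Dnmt3b KO 1+2 lay within the WT range and Dnmt3b KO 11 and 12 below it in both. Dnmt3a in ExE endoderm-like cells was 36 ± 5.65 CPM in WT, 7.20 ± 1.69 CPM in Dnmt3a KO and 23.7 ± 16.1 CPM in Dnmt3b KO.

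In Dnmt1 KO, Gstm6 passed the filter in 3 of 6 classes and fell in ExE mesoderm-like cells. The Dnmt1 KO embryos stood there at 5.09, 5.99 and 2.74 CPM, all below every WT embryo, with a log2 fold change of −1.37 ± 0.38 and an adjusted p of 0.00875 (edgeR), against 3.85% of all gene and class pairs called lower. The call was lost with DESeq2 and with Dnmt3b KO 1 and 2 entered as 2 libraries. Cluster 24 of this class was 98.7% Dnmt1 KO cells, and the part of such differences within the class was not tested. In ExE endoderm-like cells (−0.21 ± 0.31) and gut endoderm-like cells (−0.65 ± 0.59) the Dnmt1 KO embryos overlapped with WT. ExE endoderm-like cells were 18.8% of the named Dnmt1 KO cells, with 342, 630 and 103 cells in Dnmt1 KO 1, 2 and 3, and 8.32% of those of WT. The part of makeup in the whole-embryo value was not tested, and in whole-embryo sums fewer cells of a type and fewer transcripts per cell cannot be told apart.

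The share of cells with a Gstm6 UMI, at 1500 UMIs per cell, was 0.438% ± 0.0857 in WT, 0.398% ± 0.130 in Dnmt1 KO (exact two-sided permutation test, p = 0.60) and 0.280% ± 0.222 in Dnmt3b KO (p = 0.150, adjusted p = 0.200, same test), with Dnmt3b KO 1+2 by itself at 0.530%. As for Stk31, the thinned share largely restates the level. Unthinned shares were 8.82% ± 3.94, 10.9% ± 6.72 and 3.0% ± 1.24. Unthinned, where depth per cell is not made equal, the Dnmt3b KO difference had an adjusted p of 0.0444 (exact permutation test), below the threshold of 0.05. In Dnmt3a KO 1, 2, 13 and 14 the thinned shares were 0.0382%, 0.0417%, 0.0345% and 0.134%. Erythroid-like WT cells had the lowest share of all classes, at 0.0293%, and WT ExE mesoderm-like cells stood at 2.0%, with median depths of 31371 and 29054 UMIs.

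Of the other 6 mu class genes, all tested, none was called in any KO group by edgeR, which for 6 genes is near the shares of all genes called (8.19% higher and 6.09% lower in Dnmt1 KO, less in the other KO groups). Their values are a description, with median log2 fold changes of 0.21, 0.28 and 0.04 in Dnmt1, Dnmt3a and Dnmt3b KO. In Dnmt3a KO their values ran from −0.19 ± 0.21 for Gstm7 to 0.38 ± 0.15 for Gstm5. Gstm7 and Gstm3, which flank Gstm6 on either side at chr3:107926334-107931817 and chr3:107963696-107969283, went from 0.538 ± 0.155 to 0.480 ± 0.0774 CPM and from 2.26 ± 0.723 to 2.59 ± 1.14 CPM between WT and Dnmt3a KO. Gstm5 had a log2 fold change of −0.90 ± 0.17 in Dnmt1 KO with an adjusted p of 0.00064 (edgeR), short of the fold threshold, from 97.6 ± 17.2 to 49.6 ± 5.75 CPM. Gstm1, Gstm2 and Gstm4 lay between −0.12 and 0.76 in the 3 comparisons.

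**Figure D5:**
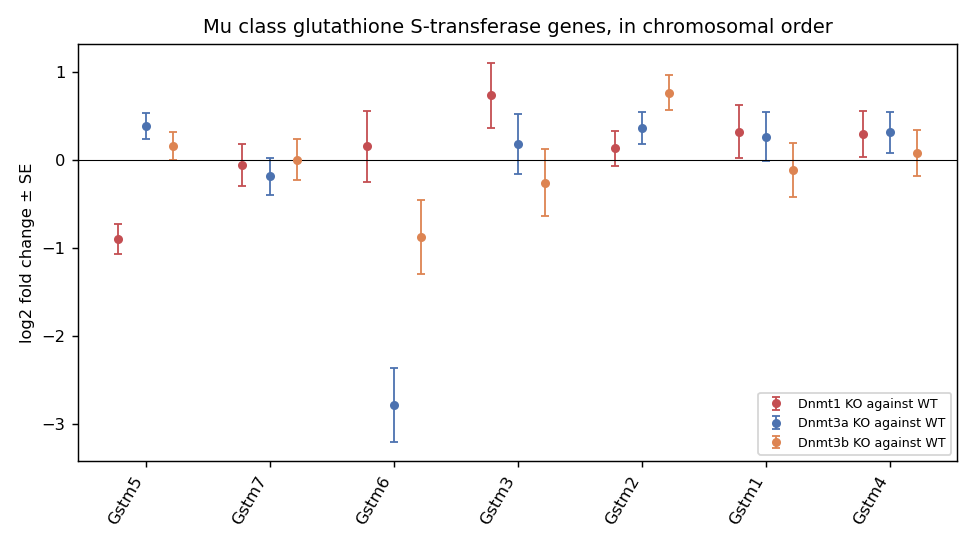
Log2 fold change against WT with its SE for the 7 mu class glutathione S-transferase genes, in the order in which they lie on mouse chromosome 3, from whole-embryo sums. Red is Dnmt1 KO, blue Dnmt3a KO and orange Dnmt3b KO, all against the same 7 WT embryos. Gstm6 in Dnmt3a KO stands at −2.79, while the other 6 genes lie between −0.19 and 0.38 in that comparison.

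Of 18 further glutathione S-transferase genes, 17 were tested. In Dnmt1 KO 2 were called higher and 1 lower, in Dnmt3b KO 1 was called higher and in Dnmt3a KO none was called, with medians of 0.13, 0.08 and 0.10. In Dnmt1 KO 8.19% of all genes were called higher and 6.09% lower, and in Dnmt3b KO 1.83% higher, so these counts are near the background, and without Dnmt3b KO 11 and 12 none was called in Dnmt3b KO by edgeR. Gstp2, a pi class enzyme, rose by 3.90 ± 0.47 in Dnmt1 KO and by 3.66 ± 0.47 in Dnmt3b KO, from 0.211 ± 0.106 CPM in WT, and Gstp3, which passed the filter through the KO embryos, had a fitted 4.25 ± 0.55 in Dnmt1 KO, from 0.0379 ± 0.0202 to 0.615 ± 0.148 CPM. Dnmt3b KO 1+2 held 0.945 CPM of Gstp2 and Dnmt3b KO 12 held 5.69 CPM, and without Dnmt3b KO 11 and 12 its log2 fold change was 2.01 ± 0.53 with an adjusted p of 0.152 (edgeR). Gstp2 and Gstp3 are close copies of Gstp1, so that reads may be split between them. Mgst1, a microsomal enzyme, fell from 19.4 ± 2.98 CPM to 6.33 ± 2.21 CPM in Dnmt1 KO (−1.54 ± 0.17). Of 11 genes of glutathione synthesis and the NRF2 stress response, Hmox1 (heme oxygenase) was called higher in Dnmt1 KO at 1.24 ± 0.23, 1 of 11 beside the 8.19% of all genes, and none was called in Dnmt3a KO or Dnmt3b KO by edgeR.

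The genes most like Gstm6 over the 17 columns were 2410018L13Rik (r = 0.946), Dnmt3a (0.931), AC163633.1 (0.877), 5730507C01Rik (0.863) and Olfr506 (0.856), by the same measure as for Stk31. Of these, 4 lie on chromosome 12 between 3806007 and 23010284, with Dnmt3a at chr12:3806007-3914443 and 2410018L13Rik, a noncoding RNA, at chr12:22953997-23010284, whereas Gstm6 lies on chromosome 3. The level of 2410018L13Rik was 11.8 to 16.3 CPM in WT with a median of 13.9 CPM, and 14.2 to 15.2 CPM in Dnmt1 KO. It was 1.92, 1.92, 1.79 and 10.3 CPM in Dnmt3a KO 1, 2, 13 and 14, and 16.4, 8.84 and 2.02 CPM in Dnmt3b KO 1+2, 11 and 12. The embryos with intermediate Gstm6, Dnmt3a KO 14 and Dnmt3b KO 11, thus had intermediate 2410018L13Rik. AC163633.1 went from 2.20 ± 0.278 CPM in WT to 1.06 ± 0.824 CPM in Dnmt3a KO and 5730507C01Rik from 3.83 ± 0.758 to 1.84 ± 1.10 CPM. Of these 5 genes, Dnmt3a was called in Dnmt3a KO by edgeR and the other 4 were not. Gstm6 was chosen on its Dnmt3a KO values, so the r of genes low in those embryos, Dnmt3a among them, follows in part from the choice.

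Of 38 genes annotated within 500 kb of Gstm6, 30 were tested, the other mu class genes among them. None was called by edgeR in Dnmt3a KO, where log2 fold changes ran from −0.52 to 0.52 and 0.196% of all genes were called higher and 0.0106% lower. None was called in Dnmt3b KO either, where they ran from −1.17 to 1.07 and the shares of all genes were 1.83% and 0.0318%. For 30 genes both counts are near those shares. In Dnmt1 KO 2 were called lower, a share close to the 6.09% of all genes. These were Mybphl, a myosin-binding protein, at −3.51 ± 0.75 and Celsr2, an adhesion receptor of the nervous system, at −1.96 ± 0.29. The Dnmt1 KO embryos held 1, 0 and 0 cardiomyocyte-like cells, against 33 to 196 per WT embryo. They held 0, 2 and 5 hindbrain and spinal cord-like cells, against 166 to 655. The part of makeup in these 2 falls was not tested.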

How the data were processed

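The 18 single-cell libraries, of E8.5 embryos, were made with 10x 3′ v3 chemistry and counted here as 17 embryos. The authors deposited raw UMI counts per gene and barcode, made with Cell Ranger on mm10 with Ensembl annotation. File headers name version 3.1.0 for 17 libraries and 5.0.0 for Dnmt3b KO 12, and 4 libraries were aligned to a combined human and mouse reference, of which mouse genes were used.

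From those deposited counts, the members were found by symbol and counts were summed per embryo over barcodes with at least 1500 UMIs, with Dnmt3b KO 1 and 2 summed into 1 of 17 columns. Sums were tested with edgeR 4.0.16 (quasi-likelihood test, filterByExpr, TMM, 4 groups in 1 fit), and calls required an adjusted p below 0.01 with a log2 fold change of 1 or more. The SE is the log2 fold change divided by the root of its F statistic. The pipeline was tested on simulated data.

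For classes, cells with at most 30% mitochondrial and 35% ribosomal protein counts were kept, the top Scrublet scores removed as doublets (0.8% per 1000 cells), and 1500 cells per library clustered (scanpy 1.11.5, 2500 variable genes without members and list genes, 50 components, 30 neighbours, Leiden resolution 2). Of 46 clusters, 39 were named and 7 were not. The 109962 cells kept were assigned to these clusters. Classes were tested where at least 3 embryos of WT and of the KO group had 25 cells.

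Shares of cells were computed as exact expectations after thinning to 1500 UMIs. Litter and batch are not given in the labels.

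Named genes were the members, the targeted genes, called genes of 5 lists (Tudor domain, piRNA pathway, mu class, other glutathione S-transferases, glutathione synthesis and NRF2 response) with all mu class genes, tested genes within 500 kb of a member, and the 5 genes most like each member. The members and lists were chosen with earlier results of these data known. Promoter sequences are from RefSeq (GRCm38.p6), matched by symbol for both members, and positions from GENCODE vM21 (30934 of 31053 gene IDs matched). Proteins were not analysed here. Replicate numbers did not pair the embryos.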

Additional observations from a re-analysis of the deposited data

Results flagged for a closer look

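Gstm6 in Dnmt3a KO 14 stood at 1.05 CPM, far from the other Dnmt3a KO embryos at 0.286 to 0.288 CPM. The gap to the nearest embryo was 0.997 of the range of the group, above the Dixon critical value for 4 samples. In all, 14 groups were checked and 1 was marked, where chance marks about 1 in 20. The same embryo had the highest Dnmt3a level of its group, at 11.8 CPM beside 7.59 to 9.73 CPM.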

How the results depend on the processing

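The rise of Stk31 in Dnmt1 KO kept its direction and call under all 29 alternatives run, with 3.95 to 4.30 on leaving out an embryo, and that in Dnmt3b KO under 29 of 30, with 3.0 to 3.73. The described Dnmt3a KO values ran from 2.97 to 3.16 for Stk31 and from −3.43 to −2.62 for Gstm6 on leaving out an embryo. Leaving out an embryo gave −1.09 to −0.37 for Stk31 and −1.26 to −0.62 for Gstm6 between Dnmt3b KO and Dnmt1 KO, −0.93 to −0.48 for Gstm6 in Dnmt3b KO, and −0.08 to 0.40 for Gstm6 in Dnmt1 KO, where the sign turned without Dnmt1 KO 1 and, at −0.40, with the Y-linked level as a covariate. The cause was not tested. With that covariate the other values were 4.27 and 3.62 for Stk31 and −1.32 for Gstm6 in Dnmt3b KO. The labels share replicate numbers, but of 13 same-numbered pairs 3 had deviations correlated over 0.1 (range −0.272 to 0.197), and 0 of 10 libraries with a partner correlated best with their own number, so the numbers do not pair embryos. With the replicate block Stk31 stood at 2.46 in Dnmt3a KO, at 2.33 in Dnmt3b KO (adjusted p of 0.0136, edgeR) and at −1.50 between Dnmt3b KO and Dnmt1 KO (adjusted p of 0.00715, edgeR), and the block changed no other call of either gene.

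Stk31 was called in 3 classes of Dnmt1 KO with at least 50 cells, where 3 were tested, and in 15 of 16 classes of Dnmt3b KO both with at least 50 cells and with the Y-linked covariate, beside 16 of 16. Gstm6 was called in 0 classes of Dnmt1 KO with DESeq2 or with Dnmt3b KO 1 and 2 as 2 libraries, and in 1 otherwise. Without Dnmt3b KO 11 and 12 the other glutathione S-transferases called in Dnmt3b KO went from 1 to 0. The Stk31 share of cells differed from WT by 0.697 to 0.952 percentage points in Dnmt1 KO and 0.459 to 0.843 in Dnmt3b KO without 1 embryo, where 2 embryos against 7 cannot pass the threshold (adjusted p = 0.111, exact permutation test). The Gstm6 share differed by −0.0770 to 0.0359 in Dnmt1 KO and −0.184 to −0.0715 in Dnmt3b KO, and unthinned by 2.10 and −5.83 (adjusted p = 0.0444, exact permutation test, for Dnmt3b KO). Class counts were not run without single embryos, since 3 KO embryos are the minimum.

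Genes called numbered 2695 in Dnmt1 KO (1158 at the smallest total, 1414 with the block) and 39 in Dnmt3a KO (110 with DESeq2, 70 with the Y-linked covariate, 11 at the smallest total, 69 without WT 2, 23 without Dnmt3a KO 2 or 13, 88 without Dnmt3b KO 12, 1 with the block). They numbered 351 in Dnmt3b KO (116 at the smallest total, 233 with those groups alone, 194 without Dnmt3b KO 12, 87 without 11 and 12, 5 with the block) and 1669 between Dnmt3b KO and Dnmt1 KO (648 at the smallest total, 600 with those groups alone, 945 without Dnmt1 KO 2, 816 without Dnmt3b KO 11 and 12, 686 with the block).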

Other observations

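Further classes held 1 or both genes. ExE ectoderm-like cells, of the trophoblast lineage, had 15.6, 10.5 and 10.6 CPM of Stk31 and 1.79, 2.20 and 2.64 CPM of Gstm6 in Dnmt1 KO, and 7.0 and 2.0 CPM in WT 2, with cluster 14 at 94.5% Dnmt1 KO cells. Epiblast-like cells, 825 cells of Dnmt1 KO, had 3.37, 3.08 and 2.97 CPM of Stk31 and 1.33 to 1.73 CPM of Gstm6, and cluster 22 was 98.8% Dnmt1 KO cells. Notochord-like cells numbered 25 to 81 per embryo, where the 81 of Dnmt3b KO 1+2 were 40 and 41 in Dnmt3b KO 1 and 2. In these cells Gstm6 stood at 11 to 14 CPM in WT 1, 3, 4 and 6, at 0, 1.39, 4.17 and 4.97 CPM in the Dnmt3a KO embryos, at 15.4 CPM in Dnmt3b KO 1+2 and at 7.73 CPM in Dnmt3b KO 11. Stk31 in cardiomyocyte-like cells had 0 UMIs in 6 of 7 WT embryos and 0.401 CPM in WT 1, beside 3.0, 2.39, 5.25 and 6.56 CPM in Dnmt3a KO and 3.75, 6.0 and 15.7 CPM in Dnmt3b KO.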
